A study of Homo sapiens with 16 samples.

Results

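The AbC G4-ChIP libraries CTnuc and KDnuc were compared to ask where DNA captured by an antibody against G-quadruplexes (G4s) differed when CGGBP1, a nuclear protein that binds CGG repeats and other G/C-rich repetitive DNA, was depleted. Both came from HEK293T, a human embryonic kidney cell line, kept as stable lines after lentiviral transduction with a non-targeting shRNA (CTnuc) or an shRNA against CGGBP1 (KDnuc). Briefly fixed and permeabilised cells of both lines were incubated with the 1H6 antibody in a potassium buffer before a further crosslinking and pull-down, each library was pooled from replicates before sequencing on an Ion Torrent S5, and both were set against an input pooled from the same cells, which was not analysed here. Each condition thus had 1 library and no spread between replicates, so no difference between KDnuc and CTnuc was tested, and the level of CGGBP1 cannot be read from peak lists. The members are the peaks of both lists, 3796 for CTnuc and 7753 for KDnuc, among 9 lists with 40118 peaks in all. They were split by whether at least 1 bp overlapped a peak of the other list.

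A G4 is a stacked structure that DNA rich in runs of guanine can fold into when the strands separate, and the letters usually taken as its signature are runs of GGG separated by short loops. Helicases unwind such structures during replication and repair, and many proteins bind them at promoters and telomeres. Alpha satellite, the tandem repeat of human centromeres, is poor in such runs and carries the CENP-B box, the site that the centromere protein CENP-B binds.

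Of the KDnuc peaks, 5143 overlapped no CTnuc peak (KD only), which is 66.3% (95% interval 65.3% to 67.4%). Of the CTnuc peaks, 1061 overlapped no KDnuc peak (CT only), which is 28% (26.5% to 29.4%). The remaining 2610 KDnuc and 2735 CTnuc peaks were shared and merged into 2484 regions. These intervals are exact Clopper-Pearson intervals and cover counting error only. KD only peaks spanned 5.04 Mb, CT only peaks 0.964 Mb, and the whole lists 10.2 Mb for KDnuc and 5.32 Mb for CTnuc. KD only peaks thus outnumbered CT only peaks, and they were drawn from a list that was 2.04 times as long. When KDnuc was cut to the 3796 peaks with the highest -log10 q, so that both lists had the same length, the shares were 45.4% for KD only and 41.9% for CT only.

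Representative sequences of hg38, plus strand, are given here for the kinds of DNA that the classes held. The first set is shown because alpha satellite made up the largest kind of tandem repeat in every class; each comes from the strongest peak of its class among those with alpha-satellite repeats and a CENP-B box, searched on both strands, and capitals mark the box.
KD only, chr5:49630967-49631124: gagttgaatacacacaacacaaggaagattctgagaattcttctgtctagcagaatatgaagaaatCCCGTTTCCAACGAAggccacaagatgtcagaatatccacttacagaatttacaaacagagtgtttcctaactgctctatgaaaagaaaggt
CT only, chr7:59217257-59217352: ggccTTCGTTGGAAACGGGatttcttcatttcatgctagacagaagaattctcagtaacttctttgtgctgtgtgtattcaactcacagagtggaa
Shared, chr17:26603680-26603793: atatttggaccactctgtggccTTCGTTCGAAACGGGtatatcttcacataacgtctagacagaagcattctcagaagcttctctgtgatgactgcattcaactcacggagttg
The KD only peak had a fold over background of 37, the CT only peak of 20, and the shared peak of 42.8 in KDnuc. The box, by which the peaks were chosen, is on the plus strand in the CT only and shared peaks and on the minus strand in the KD only peak.

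The second set shows the G4 signature, 4 or more runs of GGG (or CCC on the other strand) with loops of 1 to 7 bases, in the peak with the highest fold of each class that holds it outside tandem repeats; capitals mark the signature.
KD only, chr22:12171236-12171325: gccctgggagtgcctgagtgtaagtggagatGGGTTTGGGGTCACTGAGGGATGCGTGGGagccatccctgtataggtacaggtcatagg
CT only, chr2:128373018-128373107: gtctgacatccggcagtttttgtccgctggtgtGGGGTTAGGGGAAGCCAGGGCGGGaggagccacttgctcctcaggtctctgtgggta
Shared, chr18:111830-111919: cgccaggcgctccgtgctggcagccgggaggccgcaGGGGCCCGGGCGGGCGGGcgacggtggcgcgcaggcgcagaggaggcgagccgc
Their folds were 11.5 for the KD only peak, 18.2 for the CT only peak and 29.7 for the shared peak in KDnuc. Both unshared peaks are intergenic by GENCODE, and the shared peak lies within 1 kb of the lncRNA gene ROCK1P1.

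The third set shows peaks outside tandem repeats in genes with many KD only peaks, chosen for their fold and not as typical, with runs of 3 or more G or C in capitals. The first and second are the centres of the PCDH9 peaks with the highest fold, inside the gene of a protocadherin, a neuronal adhesion protein, and the last is the centre of the KD only peak with the highest fold in DTNA, the gene of alpha-dystrobrevin.
PCDH9, KD only, chr13:66489473-66489592: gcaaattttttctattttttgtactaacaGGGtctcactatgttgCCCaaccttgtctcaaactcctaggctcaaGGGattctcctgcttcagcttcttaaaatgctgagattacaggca
PCDH9, CT only, chr13:67147667-67147786: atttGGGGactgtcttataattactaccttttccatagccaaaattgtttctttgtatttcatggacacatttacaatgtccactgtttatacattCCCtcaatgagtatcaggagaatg
DTNA, KD only, chr18:34651298-34651417: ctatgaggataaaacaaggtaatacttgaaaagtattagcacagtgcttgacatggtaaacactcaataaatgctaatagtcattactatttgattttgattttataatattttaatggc
Their folds were 6 and 5.62 in PCDH9 and 5.33 in DTNA. The DTNA stretch holds no run of 3 G or C at all, and the PCDH9 pieces hold scattered runs that form no signature.

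KD only peaks were short and of low fold. Fold is the mean enrichment over background within a peak, as the peak caller gave it. The authors set a fixed background, so fold is not a ratio to the input at the peak itself. KD only peaks had a median length of 808 bp and a median fold of 4.49, and CT only peaks 782 bp and 4.8. Shared peaks had a median of 1312 bp and a fold of 5.41 in KDnuc, and 1129 bp and 5.46 in CTnuc. The unshared peaks of either library were thus shorter and weaker than the shared peaks of the same library. The lowest fold listed was 4.11 in KDnuc and 4.33 in CTnuc, and 1683 KD only peaks, 32.7% of the class (31.4% to 34%), lay under the CTnuc minimum. No CT only peak lay under the KDnuc minimum. With only the KDnuc peaks at or above the CTnuc minimum, a setting chosen after the data were seen, 58.4% overlapped no CTnuc peak. A fold of 10 or more was reached by 67 KD only peaks, 31 CT only peaks and 260 shared peaks of KDnuc.

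At the shared regions the folds of both libraries were nearly equal. A region is shared only where both libraries have a listed peak, and the peaks of both were called against the same pooled input. Regions where 1 library was low were thus left out, which favours like folds. The median log2 ratio of KDnuc to CTnuc was -0.02, with quartiles of -0.13 and 0.10, and KDnuc was the higher in 1140 of 2484 regions. KDnuc exceeded CTnuc by 1.5 times or more in 23 regions (0.926%), and CTnuc exceeded KDnuc by as much in 19 (0.765%). All 19 of the latter and 17 of the former lay in tandem repeats. The highest ratio was on chromosome 13, from 17170379 to 17171944, where the fold was 16.8 in KDnuc and 6.05 in CTnuc. The lowest was on chromosome 20, from 26600362 to 26602257, where it was 5.89 in KDnuc and 13.5 in CTnuc. The 5 regions at either end were all intergenic tandem repeats. The width of the shared peaks differed more than their fold: KDnuc peaks covered more bases than CTnuc peaks in 1584 regions (63.8%), with 5.12 Mb against 4.35 Mb in all.

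Peaks of the other library were often near. A KDnuc peak lay within 3 kb of 56.6% of CT only peaks (53.6% to 59.7%), and a CTnuc peak within 3 kb of 21.1% of KD only peaks (20% to 22.3%). The median distance to the other list was 2465 bp for CT only and 18787 bp for KD only peaks. The KDnuc list is denser, so these distances are not like for like. The peak names also show that both lists are incomplete: they are numbered along the genome up to 22266 in KDnuc and 10757 in CTnuc, so that 65.2% and 64.7% of the numbers are not listed. Only 278 KD only peaks (5.41%) lay between listed CTnuc peaks with consecutive numbers, where no unlisted CTnuc peak could have been. For the others the absence of a CTnuc peak holds for the deposited list alone.

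Tandem repeats held 1735 KD only peaks (33.7%, 32.4% to 35%), 493 CT only peaks (46.5%, 43.4% to 49.5%) and 1531 shared KDnuc peaks (58.7%, 56.7% to 60.6%), against 2.64% of all 1 kb windows of hg38 without unknown bases. A peak was counted as one when at least 55% of its bases equalled the base 1 alpha-satellite unit further on, or when ATTCC and GGAAT, the pentamer of the classical human satellites on either strand, made up over 10% of it. Nearly all had the alpha-satellite period: 1716 of KD only, 485 of CT only and 1464 of shared KDnuc peaks. They are called alpha satellite here by this period alone, and on chromosome 7 they spanned 58.2 to 101 Mb. The pentamer repeats held 19 KD only, 8 CT only and 67 shared KDnuc peaks, and the latter had the highest folds, with a median of 10.9 in KDnuc and 11 in CTnuc. The strongest shared peak is such a repeat, on chromosome 16 from 34581139 to 34582556, with a fold of 51 in KDnuc. Its centre is shown with the pentamer and its complement in capitals.
Shared, chr16:34581788-34581907: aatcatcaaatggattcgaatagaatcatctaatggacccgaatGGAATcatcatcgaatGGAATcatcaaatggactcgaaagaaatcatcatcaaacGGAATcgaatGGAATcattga

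The alpha-satellite peaks of KDnuc were unshared to different degrees on different chromosomes. KD only peaks made up over 80% of them on 5 chromosomes. On chromosome 11 they were 84 of 95 (88.4%, 80.2% to 94.1%), on chromosome 16 they were 81 of 96 (84.4%), on chromosome 20 they were 117 of 139 (84.2%), and on chromosome 18 they were 117 of 146 (80.1%). On chromosome 10 only 44 of 186 were KD only (23.7%, 17.7% to 30.4%), on chromosome 22 28 of 79 (35.4%), and on chromosome 1 159 of 391 (40.7%). The interval of chromosome 10 does not overlap those of chromosomes 11, 16, 18 and 20. The alpha-satellite peaks of CTnuc on chromosome 11 numbered 19 in all, and those on chromosome 10 numbered 170. Reads were kept only where they aligned uniquely, and copies of the higher-order repeats of an alpha-satellite array differ by few bases, so the position of a peak within an array is uncertain.

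The most frequent words of 20 bases were alpha-satellite words in all classes. The word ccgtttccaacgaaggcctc, which runs into the CENP-B box, was in 816 KD only peaks (15.9%), 248 CT only peaks (23.4%) and 819 shared KDnuc peaks (31.4%). Its neighbour on the other strand, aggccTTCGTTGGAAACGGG with the box in capitals, was in 811 KD only, 247 CT only and 816 shared peaks. The third, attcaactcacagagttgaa, led among shared peaks with 875 (33.5%) and was in 814 KD only and 216 CT only peaks. A CENP-B box was in 31.1% of KD only, 42.1% of CT only and 51.2% of shared KDnuc peaks, against 1.95% of 1 kb windows. The KD only class thus drew on the same words as the shared peaks, in a smaller share of its peaks. Alpha satellite itself made up 33.4% of KD only, 45.7% of CT only and 56.1% of shared KDnuc peaks. A box was in 1599 KD only, 447 CT only and 1336 shared KDnuc peaks, beside 1716, 485 and 1464 alpha-satellite peaks. The box counts thus stood close to the alpha-satellite counts in every class. Alpha-satellite peaks had a median length of 855 bp in KD only and 1156 bp in shared KDnuc.

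Chromosome 13 held the most peaks of every class, nearly all outside tandem repeats. It had 1228 KD only peaks (23.9% of the class, or 12.5 per Mb of known sequence) and 329 CT only peaks (31%). It also had 442 shared KDnuc peaks (16.9%). Chromosomes 18, 15 and X were those with the highest KD only share of their KDnuc peaks, with 386 of 419 (92.1%, 89.1% to 94.5%), 110 of 121 (90.9%, 84.3% to 95.4%) and 329 of 365 (90.1%, 86.6% to 93%). Chromosome 21 had the lowest, with 68 of 234 (29.1%, 23.3% to 35.3%). Among peaks with a -log10 q of at least 4 in both lists, chromosome 13 held 10.4% of KD only peaks and 7% of CT only peaks, and tandem repeats held 71.2% and 76.3%.

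The KD only peaks outside tandem repeats were not spread evenly. When those less than 1 Mb apart were linked and runs of at least 20 were kept, a rule chosen after the data were seen, 20 stretches held 2488 of the 3408 peaks (73%) in 147 Mb, or 5.04% of the known sequence. Outside tandem repeats the same stretches held 470 of the 568 CT only peaks and 839 of the 1079 shared KDnuc peaks. Lying in these stretches was thus not particular to KD only peaks. The stretch with most peaks was on chromosome 13 from 61769129 to 94789177, with 1195 KD only peaks outside tandem repeats, 315 CT only peaks and 1601 KDnuc against 737 CTnuc peaks of any class. On chromosome 18, from 29784884 to 41068686, there were 247 KDnuc peaks and 3 CTnuc peaks. On chromosome X, from 100597021 to 132873926, there were 256 and 29, and on chromosome 1, from 223039761 to 245026551, there were 250 and 31. The densest was on chromosome 9 from 79172779 to 80166835, where 188 KDnuc and 103 CTnuc peaks lay within 0.994 Mb. Stretches were also found near the centromeres of chromosomes 9, 14, 20, 21 and 22. In these chromosome 1, 13 and 18 stretches KDnuc had more peaks than CTnuc in every 1 Mb bin, 22, 34 and 12 bins, and in the X stretch in 32 of 33. The stretches were built from KD only peaks, which largely fixes this order in the nuc pair.

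The peaks in the stretches had low folds, and their sequence was set beside that of windows. The median fold of KD only peaks there was 4.4, and in the chromosome 18 and X stretches none exceeded 5.33. Their median GC content was 39.2%, and the triplets GGG and CCC, counted with overlap, had a median density of 20.3 per kb, against 22 in all 1 kb windows. In the chromosome 13 stretch the peaks held 15.9 triplets per kb and the 1 kb windows of the stretch 15. In the chromosome 18 stretch these were 22.4 and 19, in the X stretch 25.6 and 21, and in the chromosome 1 stretch 28.6 and 25. The G4 signature was in 2.76%, 2.83%, 4.92% and 5.51% of these peaks, against 4.22%, 6.54%, 8.44% and 9.38% of the windows of the same stretches. The median GC content was 36.3% in the chromosome 13 peaks and 35.2% in the windows there. On chromosome 18 these were 40.3% and 37.6%, on X 41.8% and 38.4%, and on chromosome 1 43.9% and 41.6%. The peaks of these 4 stretches thus had a higher GC content and slightly more triplets per kb than the windows around them. They held the signature less often, and they are mostly shorter than the windows.

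The stretches were then read in the ut and tr pairs, AbC G4-ChIP of the same kinds of line sequenced on a MinION, which did not enter the rule for the classes. In ut a G4-forming plasmid was added to the lysate, and in tr it was transfected into the cells. In the chromosome 18 stretch KDut had 134 peaks and CTut 24, while KDtr had 45 and CTtr 50. In the chromosome 1 stretch KDut had 135 and CTut 37, and KDtr had 97 and CTtr 28. In the X stretch KDut had 6 and CTut 56, and KDtr had 10 and CTtr 3. In the chromosome 13 stretch KDut had 1072 and CTut 779, and KDtr had 876 and CTtr 804. Of these 4 stretches, KD exceeded CT in all 3 pairs on chromosomes 1 and 13, and the pairs went different ways on chromosomes 18 and X. Over all 20 stretches KDut had more peaks than CTut in 7 and fewer in 12, and KDtr had more than CTtr in 9 and fewer in 8. The whole KDut list was shorter than CTut, at 2927 against 3496 peaks, and the tr lists were of like length, at 2389 and 2367.

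The chromosome 13 stretch had an inner boundary, seen after the bins were drawn. Its first 7 Mb held 1164 KDnuc and 685 CTnuc peaks, 504 KDut and 613 CTut peaks, and 717 KDtr and 661 CTtr peaks. The remaining 26 Mb held 437 KDnuc and 52 CTnuc peaks, 568 KDut and 166 CTut peaks, and 159 KDtr and 143 CTtr peaks. The ratio of KD to CT rose across the boundary from 1.7 to 8.4 in the nuc pair and from 0.822 to 3.42 in the ut pair, and was 1.08 and 1.11 in the tr pair. G4-ChIP, the conventional method, for which the labels name no shRNA, had 681 of its 1455 peaks in the same stretch. Copy number there was not tested.

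The 10 protein-coding genes with the most KD only peaks lay in these stretches, apart from CCDC200. PCDH9 (ENSG00000184226, chromosome 13, 66302834 to 67230445) led with 99 KD only peaks, and also led the CT only class with 49 and the shared class with 98. It held 197 KDnuc and 147 CTnuc peaks of any class, 43 KDut and 79 CTut, 103 KDtr and 65 CTtr, and 61 G4-ChIP peaks. TLE4, a transcriptional corepressor gene on chromosome 9, came next with 26 KD only, 3 CT only and 16 shared peaks. DACH1, the gene of a transcription factor of eye and limb development, had 19 KD only and 7 CT only peaks. PCDH9, TLE4 and DACH1 were thus peak-rich in both libraries.

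GPC6, GPC5, DTNA, FHOD3 and CCDC178 had KDnuc peaks and no CTnuc peak. The glypican genes GPC6 and GPC5, which encode cell-surface heparan sulfate proteoglycans, had 18 and 15 KD only peaks; KDut had 18 in either gene, CTut 1 in either. KDtr had 2 peaks in GPC6 and CTtr 4, and in GPC5 they had 3 and 2. On chromosome 18 DTNA, FHOD3, the gene of a formin that organises actin in muscle, and CCDC178 had 14, 14 and 13 KD only peaks. DTNA had 14 peaks in KDut and 1 in CTut, CCDC178 had 12 and 0, and FHOD3 had 0 and 1. In the tr pair DTNA had 4 peaks in KDtr and 2 in CTtr, CCDC178 had 3 and 5, and FHOD3 had 0 in both. KLHL1, on chromosome 13, was not free of CTnuc peaks and had 17 KD only and 1 CT only peak, with 16 in KDut and 10 in CTut, and 6 in KDtr and 3 in CTtr. CCDC200, on chromosome 17, had 13 KD only and 4 shared peaks, in a region that also holds U2 small nuclear RNA genes. The folds of the KD only peaks in GPC5, GPC6, DTNA, FHOD3, KLHL1 and CCDC178 ran from 4.11 to 5.33. All are long genes, and GPC5 and GPC6 span over 1 Mb.

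In all, KD only peaks lay in the bodies of 649 protein-coding genes, 175 of them with at least 2, and CT only peaks in 54. No CTnuc peak was in 589 of the 649, and no KDnuc peak in 8 of the 54. Of 19962 protein-coding genes, 3.57% had a KD only peak in the body or within 3 kb, 0.306% a CT only peak and 0.336% a shared peak.

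Genes chosen for their known links to G4s or CGGBP1 held few peaks. Of 63 genes in 4 lists, 4 held a peak, and all 8 of these peaks were KD only. They were PARP1, which encodes a DNA-damage sensor, among 20 genes with known promoter G4s; ATRX and BRIP1, a chromatin remodeller and a helicase, among 20 genes of G4 helicases and binders; and STAG2, a cohesin subunit, among 11 genes of CGGBP1, CTCF and cohesin. The 12 loci of CGG and other repeat expansions, and CGGBP1 itself, held none. The folds of the 8 peaks ran from 4.11 to 4.39, 7 of them lay under the CTnuc minimum, and 0 overlapped a peak of the ut and tr lists. PARP1 and STAG2 lie inside the chromosome 1 and X stretches, so their peaks belong to these longer runs. The PARP1 peaks lay between 226367275 and 226380092, inside the gene (226360210 to 226408154) and away from either end. None of the PARP1 peaks held the G4 signature. Of the 747 coding genes with any peak, 712 had a KD only peak, so the class of the 8 peaks does not set them apart. With 1 of 20, 2 of 20 and 1 of 11 genes the lists stood near or above the 3.57% of all coding genes, which such small numbers cannot separate. A STAG2 peak in an intron, on chromosome X from 124237500 to 124238736 with a fold of 4.28, held the G4 signature on the minus strand, in capitals.
STAG2, KD only, chrX:124237732-124237821: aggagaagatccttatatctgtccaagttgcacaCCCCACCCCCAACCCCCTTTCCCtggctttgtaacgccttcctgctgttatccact

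At promoters the peaks of highest fold belonged largely to multicopy gene families. KD only peaks lay within 1 kb of a start site of 153 protein-coding genes and CT only peaks of 9. Start sites were those of every annotated transcript of a gene, so some lay far inside it. The highest folds of KD only peaks were 7.87 at GAGE2A, a cancer-testis antigen gene on chromosome X, 7.29 at USP17L22, a deubiquitinase gene of a tandem array on chromosome 4, 5.52 at POLR2J3, a copy of an RNA polymerase II subunit gene, 5.51 at TAF11L9, and 5.49 at GAGE13. CROCC, the gene of rootletin, a protein of the ciliary root, had 5.45. The CT only class included USP17L20 at 4.86, ZNF595, a zinc-finger gene, at 4.81, and AMY1B, a salivary amylase gene, at 4.45. It also included NPC1, a cholesterol transporter gene, at 4.4, and ARIH2 at 4.34. The NPC1 and ARIH2 peaks lay inside these genes, away from either end. Shared peaks reached 9.38 at USP17L23 and 6.41 at TAF11L5. The USP17L and TAF11L families had members in more than 1 class: USP17L22 was KD only, USP17L20 CT only and USP17L23 shared. Only uniquely aligned reads were kept, and near-identical copies differ by few bases, so which copy carries a peak is uncertain.

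The position relative to genes differed between the classes. Of KD only peaks, 61.2% were intergenic by all GENCODE genes (59.9% to 62.6%), of CT only peaks 74.8%, and of shared KDnuc peaks 77.9%, against 35% of 1 kb windows. Outside tandem repeats these were 41.6% (39.9% to 43.3%), 53% and 46.5%, against 33.3%. KD only peaks outside tandem repeats and outside the stretches, 920 in all, were intergenic in 26.2% and lay within 1 kb of a start site in 19.2%, against 33.3% and 10.4% of windows outside tandem repeats. The latter share was 19.4% for the 98 CT only peaks elsewhere and 30.8% for the 240 shared KDnuc peaks elsewhere. Longer peaks reach a start site more readily, and the median lengths elsewhere were 713 bp for KD only, 717 bp for CT only and 1687 bp for shared KDnuc peaks. For protein-coding genes alone, 9.89% of the 920 KD only peaks lay within 1 kb of a start site. This compares with 7.14% of CT only and 8.33% of shared KDnuc peaks elsewhere, and with 6.19% of windows. Over all KD only peaks outside tandem repeats this share was 4.72%, and over all KD only peaks it was 3.13%, against 6.04% of all windows.

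Outside tandem repeats, KD only and shared peaks had triplet densities near that of the windows, and the signature was less frequent in KD only peaks. Over all peaks, the median triplet density was 15.5 per kb for KD only, 11.2 for CT only and 10.1 for shared KDnuc peaks, all below the 22 of the windows. Outside tandem repeats it was 22.4, 17.5 and 21.7. The signature was in 5.84% of KD only peaks outside tandem repeats, in 3.35% of CT only peaks and in 17.1% of shared KDnuc peaks, against 9.7% of windows. Shared peaks are longer, and the shares depend on length: in the central 500 bp alone the shares were 3.37%, 2.11% and 5.93%, against 5.19%. Runs of 3 CGG, the unit CGGBP1 is named for, were in 0.147% of KD only, 0.176% of CT only and 2.04% of shared KDnuc peaks outside tandem repeats, against 0.299% of windows. An Alu sequence, a repeat that CGGBP1 is known to bind, was found in 8.25% of KD only peaks outside tandem repeats, 8.27% of CT only and 17.4% of shared peaks, against 21.9% of every 100th window. Outside tandem repeats, neither unshared class held the signature, CGG runs or Alu more often than the windows, which are longer than most of these peaks.

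The 920 KD only peaks elsewhere had a median GC content of 43.7% and 28.2 triplets per kb, and 9.67% held the signature. The 240 shared KDnuc peaks elsewhere had 47.4%, 33.8 and 26.7%.

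The strongest KD only peak and the second strongest CT only peak lay side by side, in a nuclear copy of mitochondrial DNA on chromosome 1. The KD only peak lay from 630264 to 630985 with a fold of 46, and the CT only peak from 629041 to 629665 with a fold of 22.3. Both lie within 1 kb of the mitochondrial pseudogenes MTND1P23 and MTND2P28, and both were overlapped by peaks of KDut, CTut, KDtr, CTtr and G4-ChIP. Their centres are shown with runs of 3 or more C in capitals.
KD only, chr1:630565-630684: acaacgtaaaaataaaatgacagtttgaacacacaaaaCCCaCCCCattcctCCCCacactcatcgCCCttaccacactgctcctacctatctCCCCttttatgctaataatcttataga
CT only, chr1:629293-629412: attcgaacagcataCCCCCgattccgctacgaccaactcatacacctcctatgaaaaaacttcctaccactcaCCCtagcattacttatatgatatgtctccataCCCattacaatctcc
Here an unshared peak of either library lay beside one of the other. The mitochondrial genome was left out of the alignment, and the part that reads of mitochondrial DNA had in these peaks was not tested. The other KD only peaks among the 5 with the highest fold were tandem repeats, with folds from 25.5 to 37. The strongest CT only peak, with a fold of 26.8, is on chromosome 3, from 93470010 to 93470860, within the span of 90.52 to 93.71 Mb that holds the alpha-satellite peaks of that chromosome.

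KD only peaks were found in the ut and tr lists no more often under KD than under CT. A KDut or KDtr peak overlapped 23.1% of them, and a CTut or CTtr peak 27.9%, a difference of -4.78 percentage points. In both KD lists and neither CT list were 0.7% of KD only peaks, and in both CT lists and neither KD list were 0.972%. None of the 4 lists overlapped 69.1% of them. By library, 20.7% of KD only peaks overlapped KDut, 22.6% CTut, 15.2% KDtr and 18.8% CTtr. CT only peaks were overlapped more often by every list, at 32.2%, 36.4%, 24.6% and 30.3%, and shared KDnuc peaks most often, at 45.6%, 56.6%, 38.7% and 44.4%. The lists cover 11.3 Mb (KDut), 12.2 Mb (CTut), 7.45 Mb (KDtr) and 8.75 Mb (CTtr), so the CT lists offered more to overlap.

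The difference between KD and CT lists depended on the kind of DNA. Among KD only peaks in tandem repeats, a KDut or KDtr peak overlapped 11% and a CTut or CTtr peak 23.3%. In the stretches these were 37.4% and 37.5%, and there KDut alone overlapped 33.9% (against 27.6% for CTut) and KDtr 24.6% (against 30.4% for CTtr). Elsewhere they were 7.17% and 10.5%, and 88% of the 920 peaks had no counterpart in any of the 4 lists. Of the KD only peaks with folds under the CTnuc minimum, 14.6% and 15.3% were overlapped, and of those with folds from there to 5, 29.7% and 34.7%.

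G4-ChIP overlapped 6.05% of KD only, 10.7% of CT only and 15.4% of shared KDnuc peaks. In vitro G4 DNA-IPdenat, on purified DNA that was heat-denatured and snap-chilled, overlapped 10.1%, 16.1% and 35.1%, and G4 DNA-IPnat, on DNA without denaturation, 0.603%, 0.754% and 5.36%. All 3 lists thus found shared peaks most often, and shared peaks are longer, which favours an overlap of 1 bp. For G4 DNA-IPnat the KD only and CT only shares rest on 31 and 8 peaks. Their intervals overlap, at 0.41% to 0.854% and 0.326% to 1.48%. In tandem repeats these shares were 1.79% and 1.62%, and outside them both were 0. In the stretches G4 DNA-IPdenat overlapped 2.89% of KD only peaks and G4-ChIP 10.8%.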

How the data were processed

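The deposited files of CTnuc and KDnuc are peak lists on hg38. The authors aligned Ion Torrent reads (minimap2 in the methods and labels, bowtie2 in a supplementary table) to hg38 without the Y chromosome and the mitochondrial genome, kept unique alignments and called broad peaks with MACS2 against the pooled input, with a wide bandwidth and a fixed background; versions are not given in the sources used here. Fold is, as deposited by the authors, the mean ratio over background within a peak. With a fixed background the same level is used throughout the genome, so fold is not a ratio to the input at the peak. The -log10 p-value and -log10 q-value are those the authors' MACS2 run gave, and the deposited score is 10 times -log10 q to within 1. The lists hold no read counts, and the sequencing totals that the study gives were not used here.

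Peaks were classed by overlap of at least 1 bp. Sequence was read from hg38 and set beside all 1 kb windows without unknown bases. Genes were taken from GENCODE version 44, in the order promoter (1 kb, then 3 kb), exon, intron. Promoters were placed around the start of every annotated transcript. Alu and mitochondrial copies were found with blastn 2.17.0. Named genes are, per class, the 10 coding genes with most peaks, the 10 with the highest fold at a promoter, the 5 peaks of highest fold, and all genes of the fixed lists with a peak; some with few peaks or weak folds are left unnamed, and some are not reported here. The members and lists were chosen with earlier results of these data known. The overlap and sequence functions were tested on simulated data, with 14 of 14 checks recovered. Python 3.11.15, pandas 2.3.3, scipy 1.17.1 and pysam 0.24.0 were used.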

Additional observations from a re-analysis of the deposited data

Results flagged for a closer look

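The nuc pair and another pair went opposite ways in several of the results above, and no difference between pairs was tested. KDnuc listed 2.04 times as many peaks as CTnuc, and KDut 0.837 times as many as CTut. In the stretch on chromosome X KDnuc had 8.83 times the peaks of CTnuc, and KDut 0.107 times those of CTut. In the stretch on chromosome 18 KDnuc had 247 peaks and CTnuc 3, whereas the ratio of KDtr to CTtr was 0.9. In the first 7 Mb of the chromosome 13 stretch the ratio was 1.7 in the nuc pair and 0.822 in the ut pair. In the dense stretch on chromosome 9 it was 1.83 in the nuc pair and 0.818 in the ut pair. In PCDH9 KDnuc had 197 peaks and CTnuc 147, and the ratio of KDut to CTut was 0.544. The nuc and ut libraries differ in sequencer, input and added DNA, and these cannot be told apart.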

How the results depend on the processing

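No paired analysis was possible because each shRNA had 1 nuc library, and for the same reason no replicate could be left out. The share of KDnuc peaks without a CTnuc peak was 73.5% when an overlap had to cover 50% of the peak, 78.8% at 70%, 52.3% when a peak within 3 kb counted, 48.8% for -log10 q of at least 4, 45.4% with equal list lengths, 64.4% without chromosome 13, 76% without tandem repeats and 58.4% with only folds at or above the CTnuc minimum. In the same order without the last, the share of CTnuc peaks without a KDnuc peak was 36%, 43.7%, 12.1%, 26.3%, 41.9%, 24.3% and 32.8%. The median log2 ratio at shared regions lay between -0.02 and -0.01 under all 3 alternatives. The KD minus CT difference in overlap with the ut and tr lists was -11.3 percentage points for -log10 q of at least 4, -7.08 without chromosome 13, -0.968 without tandem repeats, -6.79 with folds at or above the CTnuc minimum and -0.0804 in the stretches alone. The median of triplets per kb in KD only peaks was 14 in the central 500 bp, 8.92 for -log10 q of at least 4 and 22.4 without tandem repeats. Their intergenic share was 76.4% by protein-coding genes alone and 41.6% without tandem repeats. Chromosome 13 held 26.8% of their bases, and 10.4% of those with -log10 q of at least 4. With gaps of up to 500 kb the stretches held 65.8% of KD only peaks outside tandem repeats, and with at least 40 peaks 65.1%. The alternatives on the CTnuc minimum and on the stretches were chosen after the data were seen. Copy number and read depth in the stretches were not measured here.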
